A study of Mus musculus with 12 samples.

Results

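The 10 genes described here encode the core of the Hippo pathway in the mouse: the coactivators *Yap1* (YAP) and *Wwtr1* (TAZ), the transcription factors *Tead1*, *Tead2*, *Tead3* and *Tead4*, the kinases *Lats1*, *Lats2* and *Stk3* (MST2), and the upstream regulator *Nf2* (merlin). They were taken by symbol, with each Ensembl gene identifier mapped to its mouse symbol, and all 10 were found among the 16152 genes with deposited counts. For *Yap1* and *Tead1*, 1 exon event each was also followed in the table of exon inclusion, which holds 661162 events. The libraries are of whole lung from wild-type C57BL/6 mice of both sexes, with no treatment, at embryonic days E15.5 and E18.5 and postnatal days P5 and P8, with 3 replicates at each time-point and 12 libraries in all. All replicates at a given age were litter mates, so litter and time-point cannot be told apart, and the p-values measure only the spread between lungs of a litter.

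In the Hippo pathway, a kinase cascade in which MST kinases activate LATS kinases leads to phosphorylation of YAP and TAZ, which are then held in the cytoplasm or degraded. When the cascade is quiet, YAP and TAZ enter the nucleus and act through the TEAD factors, which bind DNA, while YAP and TAZ do not bind DNA themselves. Cell contact, polarity and mechanical stretch act on the pathway, and in the lung it is known for its part in the growth and differentiation of alveolar epithelium. RNA levels do not measure phosphorylation or the place of a protein in the cell.

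Between 41337443 and 53901957 reads per library fell on the genes with counts. Expression is given as CPM, the count of a gene scaled to the mapped reads of its library. Changes are log2 fold changes, later against earlier time-point, from edgeR's quasi-likelihood test, with p adjusted (FDR) over the 15994 genes tested. A gene was said to rise or fall when its FDR was under 0.05, and to pass both cutoffs when its absolute log2 fold change was also above 1. Some libraries stood apart in genes of neighbouring organs. The 6 cardiac muscle markers summed to 1140 and 1432 CPM in E15.5 replicates 1 and 2 and to 56.1 to 381 CPM in the other libraries. The 10 thymus markers summed to 228 and 433 CPM in P8 replicates 1 and 2, to 33.6 CPM in E15.5 replicate 2 and to 4.50 to 24.2 CPM elsewhere.

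From E18.5 to P5, *Wwtr1*, *Tead4* and *Lats2* rose, *Yap1* and *Tead2* fell, and *Tead1*, *Tead3*, *Lats1*, *Stk3* and *Nf2* did not pass the test. In this interval 5 of the 10 genes passed an FDR of 0.05, against 71.1% of all genes tested, and 3 passed both cutoffs, against 26.8%. From E15.5 to E18.5, 4 of 10 passed the FDR, against 21.5% of all genes, and none passed both cutoffs, against 3.04%. From P5 to P8, 2 of 10 fell and none rose, against 8.21% and 9.75% of all genes, and none passed both cutoffs, against 2.96%. Over the whole span, from E15.5 to P8, 6 of 10 passed, against 76.3%, and 3 passed both, against 32.3%. The number past both was 4 in DESeq2, with DESeq2 size factors in edgeR and without P8 replicate 1 or 2. It was 2 without P8 replicate 3. This last comparison uses the same libraries as the first and the third. In the 2 intervals without a gene past both cutoffs, 4 of the 10 genes had an unadjusted p under 0.05 in edgeR in each, and DESeq2 also found none past both cutoffs in either. Fits without the 2 E15.5 libraries rich in cardiac reads, or without the 3 libraries rich in thymus reads, were also made. These fits leave 1 library at E15.5 or at P8, whose spread is then assumed to be like that of the others. Fewer of all genes passed the FDR in them in the intervals concerned, so the number of Hippo genes that passed is not compared. Without the cardiac-rich libraries the changes from E15.5 to E18.5 were 0.31 for *Wwtr1*, 0.21 for *Tead1*, 0.27 for *Lats1* and -0.31 for *Tead2*. Without the thymus-rich libraries the changes from P5 to P8 were -0.29 for *Tead2* and -0.16 for *Stk3*.

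**Figure D1:**
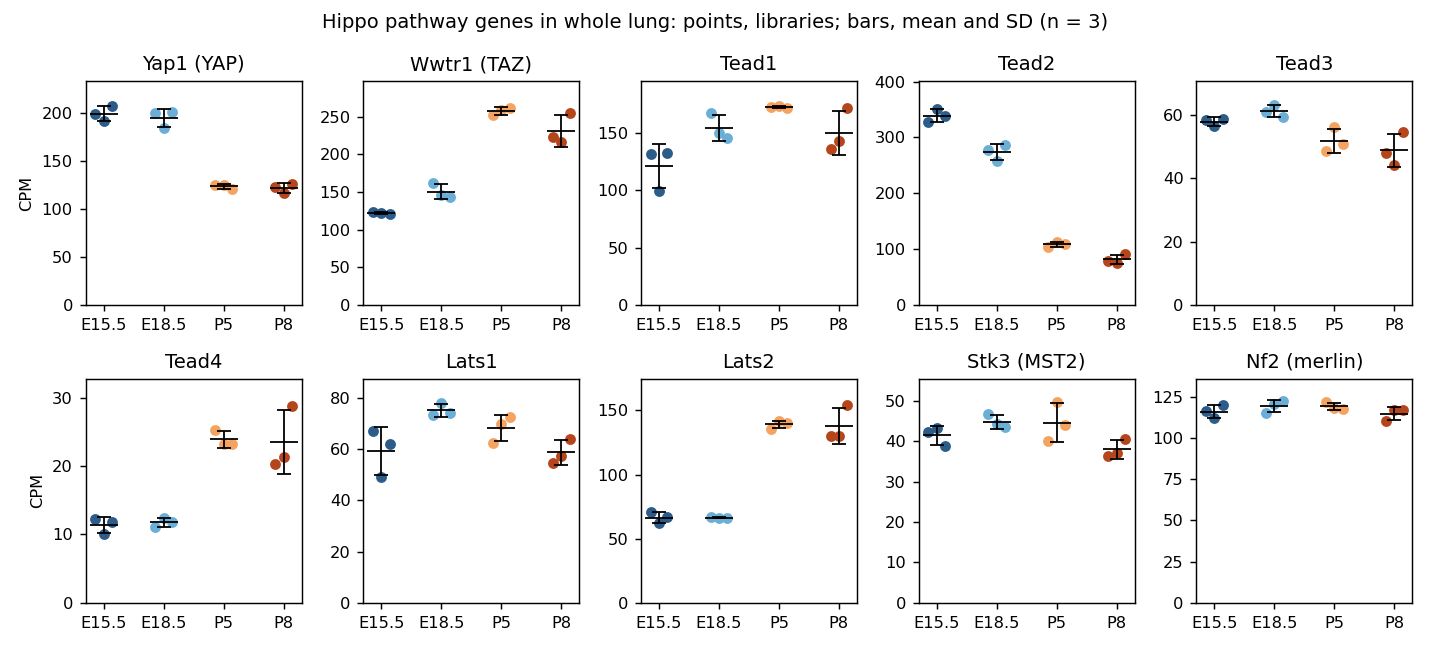
CPM of the 10 Hippo pathway genes in each library (points) by time-point (x axis), with the mean and SD of the 3 replicates (bars), and the y axis from 0 in each panel. *Yap1*, *Wwtr1*, *Tead2*, *Tead3*, *Tead4* and *Lats2* have no overlap in CPM between the 6 embryonic and the 6 postnatal libraries. CPM lacks the TMM scaling that the fold changes use, and the gap of *Tead3* does not outlast that scaling.

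*Yap1* (ENSMUSG00000053110, mm10 chr9:7931999-8004596, minus strand) encodes YAP. It was at 198, 191 and 207 CPM in the E15.5 libraries, at 199, 184 and 201 CPM in the E18.5 libraries, at 125, 125 and 120.2 CPM in the P5 libraries and at 122, 116 and 126 CPM in the P8 libraries. All embryonic libraries lay above all postnatal ones, and the time-points on each side of birth overlapped. *Yap1* fell by 0.57 on the log2 scale from E18.5 to P5 (SE 0.06, adjusted p = 4.11e-06), to 0.674 of its E18.5 level. Before that interval it changed by -0.03 (adjusted p = 0.801) and after it by -0.04 (adjusted p = 0.704).

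*Wwtr1* (ENSMUSG00000027803, chr3:57455649-57575910, minus strand) encodes TAZ, the paralog of YAP. It was at 124, 122 and 121 CPM in the E15.5 libraries, at 162, 146 and 143 CPM in the E18.5 libraries, at 252, 259 and 262 CPM in the P5 libraries and at 222, 216 and 254 CPM in the P8 libraries. The embryonic libraries reached at most 162 CPM and the postnatal ones were at least at 216 CPM. *Wwtr1* rose by 0.31 from E15.5 to E18.5 (SE 0.07, adjusted p = 0.00965) and by 0.86 from E18.5 to P5 (SE 0.07, adjusted p = 2.83e-07). With E15.5 replicate 3 as the only library of its age, the first value was 0.31 with an adjusted p of 0.131. Its change over the whole span, 0.99 (SE 0.07), lay just inside the size cutoff of 1. The change from P5 to P8 was -0.18 (adjusted p = 0.0965), the 2 groups overlapped, and without P8 replicate 3 it was -0.26 with an adjusted p of 0.0210.

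The lung at P5 also differed from that at E18.5 in markers of its cell types. The 6 AT1 markers summed to 596 to 716 CPM at E18.5 and to 2301 to 2429 CPM at P5. The 6 AT2 markers went from at most 2085 CPM to at least 16912 CPM, the 6 endothelial markers from at most 1235 to at least 2606 CPM, and the 5 leukocyte markers from at most 85.0 to at least 2079 CPM. Markers of dividing cells fell from at least 1565 to at most 594 CPM, and the 6 mesenchymal markers stood at 2254 to 2477 CPM at E18.5 and 2228 to 2479 CPM at P5. No marker of these 6 lists was under 1 CPM in all libraries of either time-point except 1 leukocyte marker at E18.5. The 4 markers of distal epithelial progenitors went from 574 to 588 CPM at E18.5 to 334 to 357 CPM at P5. The 4 mesothelial markers went from 45.2 to 53.6 CPM to 105 to 172 CPM, and the 5 erythroid markers from 1908 to 2177 CPM to 5398 to 8526 CPM. While the erythroid sum rose, 1 erythroid marker was under 1 CPM in all P5 libraries, and none was so at E18.5. The 4 smooth muscle markers overlapped between E18.5 and P5. The part of these shifts in the changes of the Hippo genes was not tested, and in bulk lung more cells of a type and more RNA per cell cannot be told apart.

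The 4 TEAD genes encode the DNA-binding partners of YAP and TAZ and went different ways. *Tead2* (ENSMUSG00000030796, chr7:45215753-45233644, plus strand) was at 328, 351 and 338 CPM in the E15.5 libraries, at 277, 258 and 286 CPM in the E18.5 libraries, at 104, 113 and 109.6 CPM in the P5 libraries and at 79.9, 75.8 and 91.0 CPM in the P8 libraries. No time-point overlapped its neighbour. *Tead2* fell in each interval, by 0.30 from E15.5 to E18.5 (SE 0.07, adjusted p = 0.0102), by 1.24 from E18.5 to P5 (SE 0.07, adjusted p = 1.77e-08) and by 0.42 from P5 to P8 (SE 0.07, adjusted p = 0.00338). Over the whole span it fell by 1.97 (SE 0.07, adjusted p = 4.61e-10), to 0.256 of its E15.5 level. Without the 2 cardiac-rich libraries, the first of these changes was -0.31 with an adjusted p of 0.102. Without the 3 libraries with the most thymus gene reads, the change from P5 to P8 was -0.29 with an adjusted p of 0.0829.

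*Tead4* (ENSMUSG00000030353, chr6:128224288-128300823, minus strand) was the lowest of the 4 at each time-point per length. It was at 12.2, 10.01 and 11.9 CPM in the E15.5 libraries, at 11.1, 12.4 and 11.8 CPM in the E18.5 libraries, at 25.3, 23.2 and 23.2 CPM in the P5 libraries and at 20.3, 21.3 and 28.8 CPM in the P8 libraries. Every postnatal library was above every embryonic one. *Tead4* rose by 1.11 from E18.5 to P5 (SE 0.13, adjusted p = 6.41e-06), a 2.16-fold change. Over the whole span it rose by 1.12, and by 0.95 without P8 replicate 3, under the size cutoff. The changes in the first and the last interval were 0.05 and -0.05.

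*Tead1* (ENSMUSG00000055320, chr7:112679318-112906807, plus strand) was at 131, 99.1 and 133 CPM in the E15.5 libraries, at 167, 150.0 and 146 CPM in the E18.5 libraries, at 173, 174 and 172 CPM in the P5 libraries and at 136, 143 and 171 CPM in the P8 libraries. Replicate 2 at E15.5 was the lowest library, and the embryonic and postnatal libraries overlapped. *Tead1* rose by 0.36 from E15.5 to E18.5 (SE 0.11, adjusted p = 0.0375) and by 0.38 over the whole span (SE 0.11, adjusted p = 0.00674). Without E15.5 replicate 2 the first of these was 0.23, with an adjusted p of 0.103, and without both E15.5 libraries rich in cardiac reads the second was 0.24, with an adjusted p of 0.0969. The first also lost the threshold without E18.5 replicate 1 (adjusted p = 0.139), E18.5 replicate 2 (adjusted p = 0.0731) or any 1 of the P5 replicates (adjusted p = 0.0528 to 0.0569). The change from E18.5 to P5 was 0.25 (SE 0.11) and missed the threshold with an adjusted p of 0.0584, while DESeq2 gave 0.27 and an adjusted p of 0.0287. With only the 6 libraries compared it passed in edgeR (adjusted p = 0.00670). Without E15.5 replicate 2, E18.5 replicate 1 or P8 replicate 3 it also passed (adjusted p = 0.0138 to 0.0488). In the other fits without 1 library it did not pass.

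*Tead3* (ENSMUSG00000002249, chr17:28331671-28350817, minus strand) was at 58.5, 56.4 and 58.8 CPM in the E15.5 libraries, at 61.0, 63.3 and 59.4 CPM in the E18.5 libraries, at 48.8, 56.1 and 50.9 CPM in the P5 libraries and at 47.9, 44.3 and 54.6 CPM in the P8 libraries. Its lowest embryonic library, E15.5 replicate 2 at 56.4 CPM, was just above its highest postnatal one, P5 replicate 2 at 56.1 CPM. CPM scales by mapped reads alone. The TMM factors used for the fold changes, 1.03 and 0.979 in these 2 libraries, reverse this order. None of its 4 changes passed the test, the largest being -0.17 from E15.5 to P8 (SE 0.08, adjusted p = 0.0655). With library size alone as the scaling that value was -0.24 with an adjusted p of 0.0135, and without P8 replicate 3 it was -0.25 with an adjusted p of 0.0102. From E18.5 to P5, *Tead3* passed the test with library size alone (-0.22, adjusted p = 0.0216), without P8 replicate 2 (-0.16, adjusted p = 0.0426) and with only the 6 libraries compared (-0.15, adjusted p = 0.0466).

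*Lats1* and *Lats2* encode the kinases that phosphorylate YAP and TAZ, and *Lats2* is itself a known transcriptional target of YAP. *Lats2* (ENSMUSG00000021959, chr14:57689662-57758388, minus strand) was at 70.6, 62.3 and 66.6 CPM in the E15.5 libraries, at 67.0, 66.3 and 66.2 CPM in the E18.5 libraries, at 136, 141 and 139.9 CPM in the P5 libraries and at 129.8, 130.2 and 154 CPM in the P8 libraries. The embryonic libraries stayed within 62.3 to 70.6 CPM, and the postnatal ones began at 129.8 CPM. *Lats2* rose by 1.15 from E18.5 to P5 (SE 0.07, adjusted p = 2.08e-08), a 2.22-fold change, with 0.01 before and -0.03 after that interval.

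*Lats1* (ENSMUSG00000040021, chr10:7681214-7716460, plus strand) was at 67.3, 49.1 and 62.0 CPM in the E15.5 libraries, at 73.3, 78.1 and 74.1 CPM in the E18.5 libraries, at 62.5, 69.7 and 72.5 CPM in the P5 libraries and at 54.8, 57.4 and 64.2 CPM in the P8 libraries. E15.5 replicate 2 was again the lowest library, and embryonic and postnatal libraries overlapped. *Lats1* rose by 0.34 from E15.5 to E18.5 (SE 0.10, adjusted p = 0.0265), and without that replicate the value was 0.22 with an adjusted p of 0.0563. Without E18.5 replicate 1 or 2 the adjusted p was 0.0649 or 0.0855, and without both cardiac-rich libraries it was 0.127. The change from E18.5 to P5 was -0.05 (SE 0.10, adjusted p = 0.634). From P5 to P8 *Lats1* did not pass the test in the main fit. It passed without E15.5 replicate 2 (-0.23, adjusted p = 0.0263) and with only the 6 libraries compared (-0.23, adjusted p = 0.0496). In the other fits without 1 library it did not pass in this interval.

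*Stk3* (ENSMUSG00000022329, chr15:34875496-35178921, minus strand) encodes MST2, a kinase that acts on LATS. It was at 42.3, 43.2 and 38.7 CPM in the E15.5 libraries, at 46.7, 44.2 and 43.4 CPM in the E18.5 libraries, at 40.1, 49.7 and 43.9 CPM in the P5 libraries and at 36.3, 37.0 and 40.6 CPM in the P8 libraries. P5 and P8 overlapped, and the fall by 0.25 between them (SE 0.08, adjusted p = 0.0409) lost the threshold in 10 of the alternative fits, among them those without E15.5 replicate 1, E18.5 replicate 2, P5 replicate 2 or 3, or P8 replicate 1 or 2 (adjusted p = 0.0534 to 0.148). With the replicate number as a block the adjusted p was 0.0626, and the fall was 0.16 without the libraries rich in thymus reads (adjusted p = 0.465).

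*Nf2* (ENSMUSG00000009073, chr11:4765845-4849536, minus strand) encodes merlin, a membrane-associated protein that recruits and activates LATS. Its 12 libraries lay between 110.4 and 122 CPM, and the means from the youngest to the oldest age were 116 ± 4.11, 119 ± 3.55, 119 ± 2.25 and 115 ± 3.69 CPM (SD, n = 3). None of its 4 changes passed the test, and the largest was 0.09 from E18.5 to P5 (SE 0.05, adjusted p = 0.140).

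Over all 10 genes, 6 had no overlap in CPM between the embryonic and the postnatal libraries, against 59.1% of all genes tested. The 6 include *Tead3*, whose small gap depends on this scaling. The median log2 fold change of the 10 from E18.5 to P5 was 0.08, beside -0.00 for all genes, and over the whole span it was 0.06 beside -0.02.

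**Figure D2:**
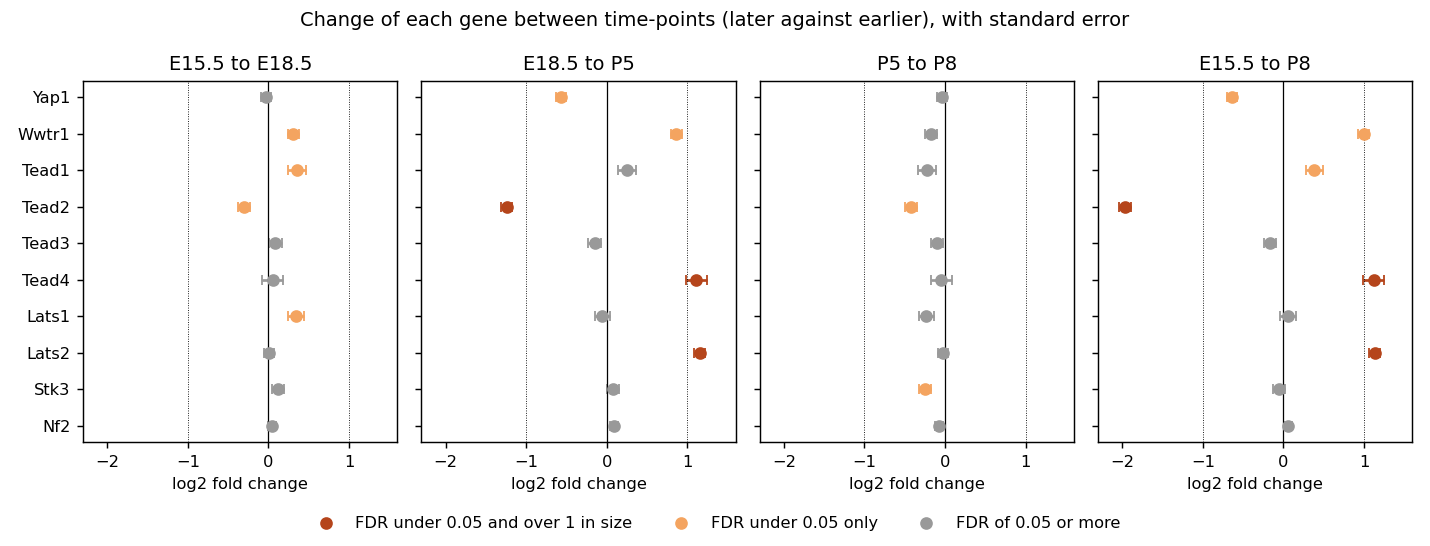
Log2 fold change (x axis) of each of the 10 genes with its standard error in the 4 comparisons, later against earlier time-point; dark points passed both cutoffs, light points the FDR only, grey points neither, and dotted lines mark the size cutoff of 1. In the panel from E18.5 to P5, *Tead2* lies at -1.24 and *Tead4* and *Lats2* lie at 1.11 and 1.15.

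Within each pair of paralogs the balance differed between embryonic and postnatal libraries. The ratio of counts in the same library needs no scaling between libraries, and gene length cancels in its change. The *Yap1* to *Wwtr1* ratio was 1.63 at E15.5 and 1.29 at E18.5, and 0.479 at P5 and 0.527 at P8, each at the mean of the log2 values. On the log2 scale it was 0.54 ± 0.20 in the embryonic libraries and -0.99 ± 0.10 in the postnatal ones (SD, n = 6 each), a difference of -1.53. The log2 ratio of *Tead1* to *Tead2* was -1.16 ± 0.42 before and 0.76 ± 0.13 after birth, a difference of 1.93, and that of *Lats1* to *Lats2* was 0.00 ± 0.22 before and -1.13 ± 0.13 after, a difference of -1.13. In each of the 3 pairs, the 6 embryonic and 6 postnatal libraries did not overlap, and the two-sided exact permutation test gave p = 0.00216, the smallest it can give, and 0.00216 after adjustment over the 3 pairs. The 12 libraries come from 4 litters, so this p treats litter mates as independent. The genes were chosen with earlier results of these data known. *Yap1* and *Wwtr1* each had no overlap, in opposite directions, which fixed the separation of their ratio, and *Tead2* and *Lats2* also had none. The p-values thus add no support beyond the changes of the single genes.

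**Figure D3:**
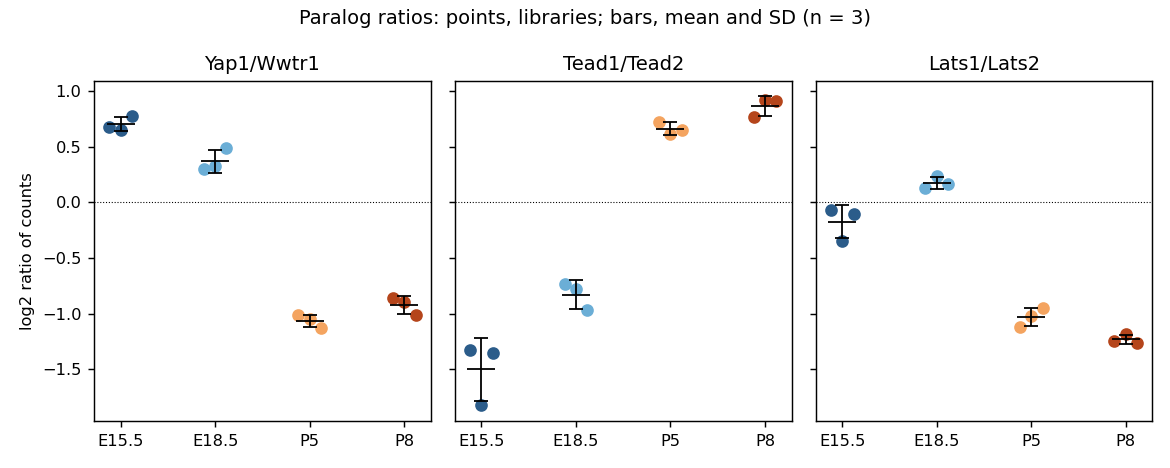
Log2 ratio of the counts of 2 paralogs (y axis) in each library (points) at the 4 time-points, with the mean and SD of 3 replicates; the dotted line marks equal counts. The *Yap1* to *Wwtr1* ratio is above 0 in the 6 embryonic libraries and below 0 in the 6 postnatal ones, and the *Tead1* to *Tead2* ratio is the other way round.

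Levels were compared between genes only as CPM per kilobase of the merged exons of each gene, a scale that does not take account of which isoforms were made. At E15.5 the order was *Tead2* (70.8 ± 2.34 CPM per kilobase), *Wwtr1* (25.6 ± 0.288), *Yap1* (21.5 ± 0.858), *Nf2* (16.98 ± 0.602), *Lats2*, *Tead1*, *Tead3*, *Lats1*, *Stk3* and *Tead4* (3.16 ± 0.332). The replicates of each gene overlapped those of the next from *Lats2* down to *Stk3* and not among the others. At P8 *Wwtr1* led (48.3 ± 4.31), followed by *Lats2* (19.8 ± 2.004), *Tead2* (17.2 ± 1.64), *Nf2* (16.8 ± 0.541) and *Yap1* (13.1 ± 0.547), with overlap between *Lats2* and *Tead2* and between *Tead2* and *Nf2*. *Tead2* thus made up 77.4% ± 2.16, 70.6% ± 1.56, 45.7% ± 0.859 and 40.9% ± 1.29 of the summed TEAD level per kilobase at the successive ages. Over the same time-points the share of *Tead4* went from 3.46% ± 0.378 to 15.4% ± 1.26, and the sum of the 4 TEAD genes went from 91.5 ± 1.03 to 42.0 ± 4.97 CPM per kilobase. The share of *Wwtr1* in the sum of *Yap1* and *Wwtr1* was 54.4% ± 1.09 at E15.5 and 78.6% ± 0.926 at P8, and that sum went from 47.0 ± 0.836 to 61.5 ± 4.79 CPM per kilobase.

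Exons of *Yap1* and *Tead1* that some transcripts skip are shown here as candidates for the 2 events, since the position of either event was not given in the sources used here. Among the protein-coding transcripts in the GENCODE annotation of mm10, *Yap1* has 1 exon that some transcripts hold and others skip: it is 48 bases long, coding, a multiple of 3, and present in 2 of 3 transcripts. *Tead1* has 4 such coding exons with a length that is a multiple of 3, among 11 protein-coding transcripts. Another skipped exon of *Tead1*, of 167 bases, is not wholly coding and its length is not a multiple of 3. It is held by 1 transcript and skipped by 3. Which of all these *Tead1* exons is the event was not settled. The longest of the 4, at 174 bases, and the exon of 167 bases are not printed. The *Yap1* exon and the 3 shorter *Tead1* exons are printed on the transcript strand as GENCODE transcript sequence, with the exon in capitals and 15 bases of each neighbouring exon in lower case. They lie at chr9:7950492-7950539, chr7:112841888-112841950, chr7:112842040-112842102 and chr7:112856053-112856064, in this order.
Yap1 exon of 48 bases: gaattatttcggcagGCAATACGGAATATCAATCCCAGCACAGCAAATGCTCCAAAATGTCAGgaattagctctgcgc
Tead1 first exon of 63 bases: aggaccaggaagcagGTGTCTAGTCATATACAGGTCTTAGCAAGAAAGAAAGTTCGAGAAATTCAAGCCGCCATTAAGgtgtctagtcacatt
Tead1 next exon of 63 bases: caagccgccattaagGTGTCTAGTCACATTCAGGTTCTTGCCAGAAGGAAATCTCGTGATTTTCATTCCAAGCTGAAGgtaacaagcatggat
Tead1 exon of 12 bases: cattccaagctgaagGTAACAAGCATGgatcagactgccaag

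Exon inclusion is given as PSI, the percentage of transcripts that hold the exon, with the exact binomial (Clopper-Pearson) 95% interval of the reads behind it, which covers counting error only. Both events were chosen by the study as changed in these same libraries, so their values are a description with no test. The *Yap1* exon was included at 25.3%, 26.6% and 24.4% in the E15.5 libraries, 34.9%, 31.1% and 30.2% in the E18.5 libraries, 46.1%, 38.9% and 40.7% in the P5 libraries and 44.6%, 41.8% and 44.0% in the P8 libraries, from 226 to 510 reads a library. Inclusion was higher in each of the 6 postnatal libraries than in each of the 6 embryonic ones, and P5 and P8 overlapped. The interval was 20.2% to 28.8% in the lowest library (E15.5 replicate 3) and 40.5% to 51.6% in the highest (P5 replicate 1). The mean PSI was 6.67 points higher at E18.5 than at E15.5, 9.83 points higher at P5 than at E18.5 and 1.53 points higher at P8 than at P5.

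The *Tead1* exon rested on fewer reads, 33 to 110 a library. It was included at 33.5%, 7.58% and 9.04% in the E15.5 libraries, 31.0%, 41.2% and 51.9% in the E18.5 libraries, 71.4%, 63.6% and 54.5% in the P5 libraries and 62.4%, 72.0% and 63.7% in the P8 libraries. E15.5 replicate 1 was above the other 2 of its time-point. Its interval, 21.5% to 48.3%, overlapped that of replicate 3, 2.87% to 24.2%, and lay just above that of replicate 2, 0.743% to 20.2%. The intervals use corrected reads rounded to whole numbers, and the 2.5 inclusion reads of replicate 2 were rounded down. The highest embryonic library was at 51.9% and the lowest postnatal one at 54.5%, so the order held, but their intervals, 38.7% to 64.2% and 43.0% to 65.0%, overlapped. The mean PSI by age was 16.7% ± 14.6, 41.3% ± 10.5, 63.2% ± 8.46 and 66.0% ± 5.20 (SD, n = 3). Where libraries with under 40 reads were left out, only replicate 1 remained at E15.5, and the difference between E15.5 and E18.5 went from 24.6 to 7.84 points.

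**Figure D4:**
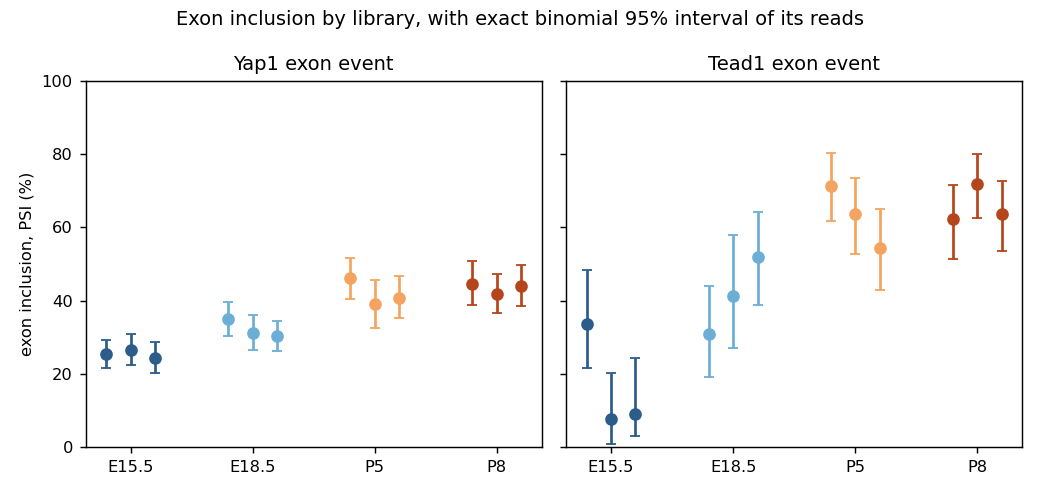
Inclusion (PSI, y axis, in percent) of the *Yap1* and *Tead1* exon events in each library at the 4 time-points, with exact binomial 95% intervals. The *Yap1* exon moves from 24.4% to 34.9% in embryonic libraries to 38.9% to 46.1% in postnatal ones, and the *Tead1* exon has wider intervals and 1 E15.5 library at 33.5%.

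Of 14034 events with a mean PSI of 5 to 95, 4.41% had no overlap between embryonic and postnatal libraries, and 2.82% had none with higher inclusion after birth. Since both events were picked for their change, nothing is read from their place among these. Multiplying CPM by PSI gives an estimate of the amount of each form. For *Yap1* the exon-holding form was at 50.5 ± 0.362 CPM at E15.5 and 52.9 ± 3.79 CPM at P8, while the form without the exon went from 148 ± 8.06 to 68.7 ± 1.71 CPM (SD, n = 3). For *Tead1* the exon-holding form went from 21.2 ± 19.9 to 98.9 ± 12.8 CPM and the other from 99.8 ± 18.1 to 51.1 ± 11.1 CPM.

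Of 22 other kinases, adaptors and upstream regulators of the pathway, between E18.5 and P5 the RNA of 15 rose and that of 3 fell at an FDR of 0.05, and 1 passed both cutoffs. Among all genes tested, 35.4% rose, 35.7% fell and 26.8% passed both cutoffs in this interval. The number of the 22 past both was 0 without E18.5 replicate 3, with 16 at an unadjusted p under 0.05 in edgeR, and 3 without E18.5 replicate 1, and DESeq2 gave 1. The median log2 fold change of the 22 was 0.34, beside -0.00 for all genes. From E15.5 to E18.5, 5 rose and 2 fell, against 11.6% and 9.87% of all genes, and from P5 to P8 2 rose and 3 fell, against 9.75% and 8.21%.

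*Stk4*, which encodes MST1, the paralog of MST2, was at 70.1, 69.1 and 71.8 CPM in the E18.5 libraries and at 99.5, 103 and 107 CPM in the P5 libraries, and it rose by 0.64 (SE 0.05, adjusted p = 1.92e-07). It reached 111, 124 and 129.6 CPM at P8. *Sav1*, the scaffold that joins MST and LATS, rose by 0.46 from E18.5 to P5 (SE 0.06, adjusted p = 2.31e-05), from 36.1 ± 0.673 to 46.7 ± 1.39 CPM (SD, n = 3). The genes of the LATS cofactors MOB1A and MOB1B moved little. *Mob1a* rose by 0.12 (adjusted p = 0.0419), with overlap between the groups, and *Mob1b* rose by 0.26 (adjusted p = 0.0325). Both lost the threshold when library size alone was the scaling, at 0.05 (adjusted p = 0.396) and 0.19 (adjusted p = 0.108). *Mob1a* also lost it in each of 9 fits without 1 library (adjusted p = 0.0546 to 0.138), all but those without E15.5 replicate 2, E18.5 replicate 2 and P8 replicate 3, and with the replicate number as a block (adjusted p = 0.0661), and *Mob1b* lost it without E18.5 replicate 1 or P5 replicate 1 or 3 (adjusted p = 0.0973 to 0.128). *Taok3*, a kinase upstream of MST, was the gene past both cutoffs: it was at 26.5, 30.7 and 23.8 CPM in the E18.5 libraries and at 56.6, 50.9 and 53.4 CPM in the P5 libraries, a rise of 1.08 (SE 0.09, adjusted p = 3.41e-07). Without E18.5 replicate 3 the rise of *Taok3* was 0.99 (adjusted p = 1.40e-06), under the size cutoff. The 3 that fell, named after their values were seen, were *Dlg5* (-0.68), *Dchs1* (-0.40) and *Stk38* (-0.20). *Dchs1* lost the threshold without any 1 of the E18.5 or P8 replicates, E15.5 replicate 1, or P5 replicate 2 or 3 (adjusted p = 0.0559 to 0.149). *Stk38* lost it in DESeq2 (adjusted p = 0.0526) and without E18.5 replicate 2 or 3 or P5 replicate 1 or 3 (adjusted p = 0.0603 to 0.179).

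Of 18 genes for binding partners of YAP, TAZ or TEAD and for junction, polarity and LIM proteins, 16 had counts, and *Vgll1* and *Vgll2* were not among the genes with counts. The list mixes proteins of different action on YAP and TAZ, so a rise or fall in it has no 1 direction of effect. From E18.5 to P5, 5 of the 16 rose and 5 fell, against 35.4% and 35.7% of all genes, with a median log2 fold change of -0.08, and 2 passed both cutoffs, against 26.8%. *Vgll3*, a TEAD cofactor, was at 3.08, 3.04 and 3.19 CPM in the E18.5 libraries and at 29.6, 27.2 and 27.9 CPM in the P5 libraries. All 6 embryonic libraries were at or under 4.01 CPM and all postnatal ones at or above 22.6 CPM, and the rise from E18.5 to P5 was 3.27 (SE 0.14, adjusted p = 2.86e-09), or 9.67-fold. *Amotl2*, an angiomotin that binds YAP at junctions and also stands in the target list, had means of 91.1 ± 4.73, 69.2 ± 1.63, 133 ± 6.12 and 174 ± 17.9 CPM from the youngest to the oldest age (SD, n = 3). It fell by 0.39 in the first interval and rose by 1.03 from E18.5 to P5 (SE 0.07, adjusted p = 8.47e-08) and by 0.38 from P5 to P8. The rise of *Amotl2* from E18.5 to P5 was under the size cutoff without P5 replicate 2, at 0.99, and with library size alone as the scaling, at 0.96.

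Other members of this group went down. *Vgll4*, which competes with YAP for TEAD, was at 132, 129 and 125 CPM in the E18.5 libraries and at 83.0, 93.2 and 97.5 CPM in the P5 libraries, and it fell by 0.41 (SE 0.06, adjusted p = 3.77e-05). *Amot*, another angiomotin, fell by 0.26 (SE 0.08, adjusted p = 0.0127), from 29.8 ± 0.870 to 23.5 ± 0.871 CPM. The polarity genes *Scrib* and *Llgl1* and the LIM protein gene *Wtip*, named after their values were seen, fell by 0.70, 0.56 and 0.43. *Amotl1*, *Llgl2* and *Limd1*, named in the same way, rose by 0.27, 0.36 and 0.51. From E15.5 to P8, 6 of the 16 rose and 6 fell, against 37.6% and 38.7% of all genes.

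Of 22 genes in a signature of YAP and TAZ targets drawn from human tumours, 14 were higher and 1 was lower at P5 than at E18.5, against 35.4% and 35.7% of all genes, and 9 passed both cutoffs, all upward, against 17.5% of all genes that passed both cutoffs upward. The median log2 fold change of the 22 was 0.57, beside -0.00 for all genes tested. The list shares 3 genes with the other lists, *Lats2*, *Amotl2* and *Ptpn14*. Without them, 12 of 19 rose and 1 fell, beside the same shares of all genes, with a median of 0.55. From E15.5 to E18.5, 4 of the 22 rose and 3 fell with a median of -0.00, against 11.6% and 9.87% of all genes. From P5 to P8, 5 rose and 2 fell with a median of 0.13, against 9.75% and 8.21%. The number past the FDR, 7 in each of these intervals, went down to 3 without E18.5 replicate 1 or 2 in the first, and without P5 replicate 2 or 3 in the second. The number of all genes past the FDR also went down in each of these fits.

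*Ccn2* and *Ccn1*, which encode matricellular proteins and are widely used as readouts of YAP and TAZ, both rose from E18.5 to P5. *Ccn2* was at 22.6, 25.4 and 15.9 CPM in the E15.5 libraries, at 16.7, 14.6 and 15.2 CPM in the E18.5 libraries, at 68.1, 76.0 and 66.6 CPM in the P5 libraries and at 97.3, 88.6 and 120.1 CPM in the P8 libraries. Its change from E15.5 to E18.5 was -0.45 and did not pass the test. That fall passed in DESeq2 (adjusted p = 0.0186) and with library size alone as the scaling (adjusted p = 0.0468). Without E15.5 replicate 3 or P8 replicate 3 it also passed (adjusted p = 0.00695 and 0.0432). *Ccn2* then changed in the later intervals. It rose by 2.26 from E18.5 to P5 (SE 0.16, adjusted p = 8.14e-08) and by 0.52 from P5 to P8 (SE 0.15, adjusted p = 0.0315), and the second of these lost the threshold without any 1 of the P5 replicates and without P8 replicate 1 or 3, with an adjusted p between 0.0684 and 0.122. *Ccn1* was at 28.0, 20.7 and 20.3 CPM in the E18.5 libraries, at 46.2, 53.8 and 51.1 CPM in the P5 libraries and at 92.4, 101 and 117 CPM in the P8 libraries. It rose by 1.21 from E18.5 to P5 (SE 0.13, adjusted p = 4.63e-06) and by 1.02 from P5 to P8 (SE 0.13, adjusted p = 0.00117), and it was the gene of the list past both cutoffs in the second interval. The second rise of *Ccn1* was under the size cutoff without P5 replicate 1, at 0.98 (adjusted p = 0.00734), and without P8 replicate 3, at 0.92 (adjusted p = 0.00119).

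Markers of other cells also differed between P5 and P8, where *Ccn1*, *Ccn2* and *Amotl2* rose. The 4 mesothelial markers summed to 105 to 172 CPM at P5 and to 442 to 491 CPM at P8, and the 6 mesenchymal markers to 2228 to 2479 CPM and to 3252 to 3866 CPM. Their part in these rises was not tested.

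*Nt5e*, which encodes the ectonucleotidase CD73, was at 3.69, 3.75 and 3.15 CPM in the E18.5 libraries, at 36.8, 36.7 and 36.6 CPM in the P5 libraries and at 53.4, 49.6 and 54.3 CPM in the P8 libraries. It rose by 3.47 from E18.5 to P5 (SE 0.12, adjusted p = 4.85e-10) and by 4.39 over the whole span. *F3*, the gene of tissue factor, rose by 2.20 from E18.5 to P5 (SE 0.22, adjusted p = 1.68e-06). It was at 19.8, 10.5 and 9.98 CPM before and at 58.2, 63.9 and 52.4 CPM after. *Nuak2*, a kinase gene named after its values were seen, was the gene of the list that fell, from 13.7, 17.6 and 14.6 CPM to 10.3, 9.37 and 10.3 CPM, by 0.52 (SE 0.12, adjusted p = 0.00146).

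*Ankrd1*, a target that is also abundant in heart muscle, moved with the cardiac genes. It was at 65.0, 94.8 and 0.472 CPM in the E15.5 libraries, in the order of the replicates, beside 1140, 1432 and 58.6 CPM for the sum of the cardiac markers in the same libraries. At E18.5 it was at 1.21, 0.804 and 0.439 CPM, at P5 at 5.11, 15.1 and 7.12 CPM and at P8 at 6.83, 23.2 and 7.94 CPM, and within P5 and within P8 the library with the highest level had the highest cardiac sum, 288 and 381 CPM. The first interval gave -6.03 (adjusted p = 0.00820), and 0.78 without the 2 cardiac-rich E15.5 libraries (adjusted p = 0.692). From E15.5 to P8 it was -2.01 (adjusted p = 0.0911), and 4.79 without those libraries (adjusted p = 0.00185), so that the direction turned. From E18.5 to P5 it rose by 3.56 (SE 1.24, adjusted p = 0.0217), and it did not pass without E18.5 replicate 2 or 3 (adjusted p = 0.0612 and 0.0742) or without P5 replicate 2, where the change was 2.995 (adjusted p = 0.0664).

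**Figure D5:**
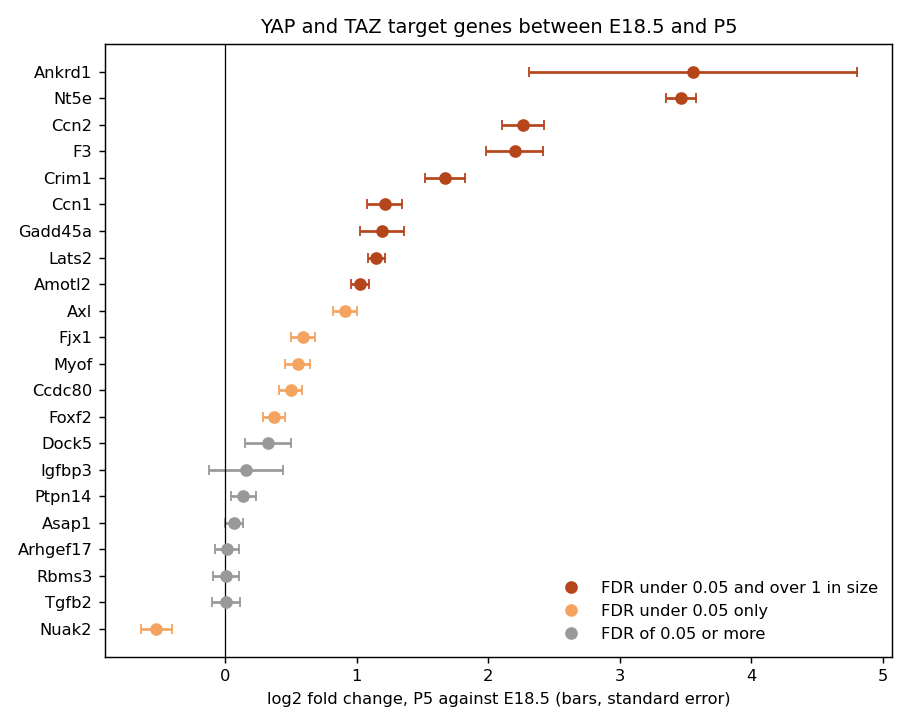
Log2 fold change (x axis) from E18.5 to P5 with its standard error for the 22 YAP and TAZ target genes, sorted by size; dark points passed both cutoffs, light points the FDR only and grey points neither. *Ankrd1* at 3.56 has by far the widest error, *Nt5e* lies at 3.47, and *Nuak2* at -0.52 is the gene that fell.

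The promoters of these genes were searched for GGAATG on either strand (CATTCC on the strand read), the core of the element that TEAD factors bind, in RefSeq promoter sequence of GRCm38.p6 that runs from 250 bases before to 50 bases after a start. Of 32851 promoters of this length in the table, 14.7% held it. Of the 10 Hippo genes, 7 were matched, with 12 promoters, and 6 of the 12 held the motif, belonging to *Yap1*, *Wwtr1*, *Tead3* and *Lats2*. Some of these windows overlap, so they are not separate observations. Of 20 promoters of the other kinases and regulators 3 held it, of 20 of the partners 8, and of 17 of the targets 7. A match of 6 letters is a description and no evidence that a TEAD factor binds there.

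The stretches of 200 bases before the start are shown for both coactivator genes, which moved in opposite directions from E18.5 to P5, and for *Vgll3* and *Ccn1*, which both rose. Each holds the motif, in capitals, and each is printed on the strand of its gene. They lie at chr9:8004597-8004796, chr3:57575877-57576076, chr16:65814989-65815188 and chr3:145649986-145650185, in this order.
Yap1: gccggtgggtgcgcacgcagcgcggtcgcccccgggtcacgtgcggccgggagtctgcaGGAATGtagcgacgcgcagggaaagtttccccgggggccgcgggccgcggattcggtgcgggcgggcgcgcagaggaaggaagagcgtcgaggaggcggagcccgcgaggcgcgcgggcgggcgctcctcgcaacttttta
Wwtr1: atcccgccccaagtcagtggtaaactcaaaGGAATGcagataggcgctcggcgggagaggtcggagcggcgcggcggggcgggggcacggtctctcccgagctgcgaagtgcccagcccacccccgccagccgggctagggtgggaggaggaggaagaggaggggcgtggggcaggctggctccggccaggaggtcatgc
Vgll3: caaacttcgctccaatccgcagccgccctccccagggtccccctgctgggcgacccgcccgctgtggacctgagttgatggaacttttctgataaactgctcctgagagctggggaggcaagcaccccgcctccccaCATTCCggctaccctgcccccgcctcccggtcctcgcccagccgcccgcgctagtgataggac
Ccn1: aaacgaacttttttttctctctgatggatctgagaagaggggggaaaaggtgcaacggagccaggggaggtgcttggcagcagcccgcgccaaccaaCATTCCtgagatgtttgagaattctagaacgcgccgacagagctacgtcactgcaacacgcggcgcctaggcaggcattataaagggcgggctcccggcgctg

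For the 3 Hippo genes past both cutoffs in some comparison, the genes with the nearest pattern over the 12 libraries were sought among genes with a mean of at least 5 CPM, by the root mean square difference of log2 CPM after each gene was centred on its own mean. Nearest to *Tead2* were *Pth1r* (0.089), *Capn6* (0.097) and *Vash2* (0.10). *Pth1r*, the receptor of parathyroid hormone-related protein, went from a mean of 130.1 CPM at E15.5 through 106 and 42.7 to 28.6 CPM at P8. Nearest to *Tead4* were *Samd4* (0.087), *Lats2* (0.088) and *Cttnbp2nl* (0.094), and nearest to *Lats2* were *Stard8* (0.052), *Trim3* (0.060) and *Fancc* (0.068). *Stard8* stood at means of 32.3, 32.9, 71.4 and 72.1 CPM at the 4 time-points, against 66.5, 66.5, 139 and 138 CPM for *Lats2*.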

How the data were processed

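Whole-lung RNA of 12 libraries was analysed from the files that the authors deposited. Per the submitters' notes, reads were aligned to mm10 with TopHat2 2.1.1 and Bowtie2 2.3.4 and counted per gene with HTSeq 0.10.0. The authors deposited raw counts of 16152 genes, CPM values (each count divided by the mapped reads of its library) and, from VAST-TOOLS, exon inclusion as a percent (PSI) with strings that hold its corrected reads. Counts were compared with edgeR 4.0.16 (R 4.3.3) by its quasi-likelihood test with TMM scaling, fitted jointly to the 4 time-points for the 15994 genes that reached 1 CPM in 3 libraries or more, with Benjamini-Hochberg adjustment. The fitting script was tested on simulated counts. DESeq2 1.42.0 and other scalings, filters and left-out libraries were tried as alternatives, and limma 3.58.1 was loaded by edgeR. Permutation tests used SciPy 1.17.1. No per-sample column was left without a sample.

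The 10 genes and the gene lists were chosen with earlier results of these data known. The named-gene rule took all 10 members, *Stk4*, *Sav1*, *Mob1a*, *Mob1b*, *Amot*, *Vgll4*, *Ccn1*, *Ccn2* and *Ankrd1*, and per list the 4 largest changes past both cutoffs from E18.5 to P5 and the 2 largest in other comparisons. Reads of paralogs that share sequence, and of overlapping antisense genes, cannot be separated here beyond what the authors' counting did, and whether counting used strand was not given in the sources used here. Precision follows from 41337443 to 53901957 counted reads a library.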

Additional observations from a re-analysis of the deposited data

How the results depend on the processing

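From E18.5 to P5 the number of Hippo genes past the FDR or both cutoffs stayed within 1.5 times its main value under each alternative run, as did the 3 paralog ratios in direction and threshold, with adjusted p between 0.00216 and 0.0159. Of 3525 alternative values of all results, 3246 kept their direction and their side of the threshold. For counts and values without a test, this meant a move of less than a set limit. Among fold changes past the FDR in the main or the alternative fit, 2 turned their direction. Both were of *Ankrd1* without the 2 cardiac-rich E15.5 libraries: 0.78 for the first interval and 4.79 for the whole span. Fold changes past the FDR in neither fit also changed sign in some fits. That of *Yap1* from E15.5 to E18.5, for example, was 0.01 without E15.5 replicate 3. The counts of the other 2 short intervals were less stable, as were those of all genes, and the cause was not tested. From E15.5 to E18.5, 1863 of all genes tested rose and 1578 fell in the main fit. Without E18.5 replicate 1 these numbers were 1131 and 803, and without P8 replicate 3 they were 2182 and 1735. From P5 to P8, 1559 rose and 1313 fell in the main fit. Without P5 replicate 3 these numbers were 593 and 609, and without P8 replicate 3 they were 1875 and 1884. Leaving out 1 library at a time, the Hippo genes past the FDR ran from 2 to 4 between E15.5 and E18.5 (2 without E15.5 replicate 2, E18.5 replicate 1 or E18.5 replicate 2) and from 1 to 3 between P5 and P8 (1 without E15.5 replicate 1, E18.5 replicate 2, P5 replicate 2 or 3, or P8 replicate 1 or 2). The other kinases and regulators past the FDR ran from 4 to 8 in the first of these intervals (4 without E15.5 replicate 2, E18.5 replicate 1 or 2, or P5 replicate 3) and from 1 to 7 in the second (1 without P5 replicate 3, 2 without P5 replicate 1 or 2, 3 without P8 replicate 1 or 2), the partners from 1 to 4 in the second (1 without P8 replicate 2), and the targets from 3 to 9 in the first (3 without E18.5 replicate 1 or 2, 4 without E15.5 replicate 1) and from 3 to 8 in the second (3 without P5 replicate 2 or 3, 4 without P8 replicate 1 or 2). Past both cutoffs, the other kinases ran from 0 to 3 from E18.5 to P5 (0 without E18.5 replicate 3, where edgeR had 16 of 22 at an unadjusted p under 0.05 and DESeq2 on all libraries 1 past both, and 3 without E18.5 replicate 1) and from 1 to 2 from E15.5 to P8 (2 without P8 replicate 2). The partners past both ran from 1 to 2 in both of those comparisons (1 without P5 replicate 2 in the one, without E15.5 replicate 1 or P8 replicate 3 in the other), and the targets from 0 to 1 from P5 to P8 (0 without P5 replicate 1 or P8 replicate 3, with 8 and 10 of 22 at an unadjusted p under 0.05, and 1 in DESeq2).

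The fit without the 2 cardiac-rich libraries, an alternative chosen after seeing the data, leaves 1 library at E15.5. The fit without the 3 thymus-rich libraries leaves 1 library at P8. Fewer of all genes passed the FDR in the comparisons that use these time-points, so list counts are not given for these 2 fits. Without the cardiac-rich libraries, *Amotl2* changed by 0.92 from E15.5 to P8, under the size cutoff. With only the 6 libraries compared, 4 kinases and 3 targets passed the FDR between E15.5 and E18.5, and 8 kinases and 6 partners between P5 and P8. With library size alone, 1 Hippo gene passed the FDR from P5 to P8, and 1 partner passed both cutoffs in each of the 2 comparisons named last for the partners above. With libraries under 40 reads left out, the *Tead1* exon had a PSI of 33.5% at E15.5, and its differences from there were 7.84 points to E18.5, 29.7 to P5 and 32.5 to P8.

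With the replicate number as a block, 1 Hippo gene passed the FDR from P5 to P8 (*Stk3* did not, adjusted p = 0.0626), *Tead1* passed from E18.5 to P5 (adjusted p = 0.0442), and no other call of a Hippo gene changed. Among the other genes named, *Mob1a* lost its call from E18.5 to P5, and between P5 and P8 *Scrib* lost one (adjusted p = 0.0585) and *Stk38* gained one (adjusted p = 0.0426). Nothing in the labels pairs libraries by replicate number. Correlations of same-numbered deviations ran from -0.34 to 0.30. Those of differently numbered libraries were not computed, so these values do not settle whether the numbers pair anything. Depth limits the *Tead1* exon, with 33 to 110 reads a library.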
